A study of Mus musculus with 6 samples.

Results

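Transcripts of 9 chemokine system genes were measured in the infarct area of mouse hearts: the receptor genes Ccr1, Ccr2, Ccr7, Cx3cr1, Cxcr2 and Cxcr4, the atypical receptor genes Ackr3 and Ccrl2, and Cx3cl1, which encodes the ligand of CX3CR1. The genes were listed by name, by a rule that uses no measured value of the comparison, but earlier results of these data were known when they were chosen. They are 9 of the 36047 genes with a record in the annotated files. Tissue came from 6 mice of strain C57BL6, aged 12 weeks, and was taken 48 h after ischemia/reperfusion (I/R). By the methods of the study the mice were female, and I/R was a temporary occlusion of the left anterior descending artery, in both groups. In the treated group, 3 mice received LGK-974, an inhibitor of Porcupine, the enzyme that adds the lipid Wnt proteins need for secretion, and 3 mice received the vehicle with dimethyl sulfoxide (DMSO), both by daily gavage. The comparison asks how transcript levels in the infarct differ when Wnt secretion is blocked. No uninjured or untreated heart was analysed here, so both groups carry the injury and the gavage.

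Chemokine receptors are G protein-coupled receptors that steer leukocytes along gradients of secreted chemokines. After myocardial infarction, neutrophils are recruited largely through CXCR2 and its CXC ligands, and classical monocytes leave the bone marrow and enter the infarct through CCR2 and its ligands such as CCL2. CX3CR1 is high on patrolling monocytes and many resident macrophages, CXCR4 retains cells where its ligand CXCL12 is made, and atypical receptors such as ACKR3 bind chemokines without classical G protein signaling.

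Depth was 41579787 to 80398211 estimated counts per library, and levels are given as CPM, counts scaled to a common library total with the trimmed mean of M values (TMM). DMSO replicate 1 stood apart from the other libraries. Genes of olfactory, vomeronasal and bitter taste receptors (1501 genes), families that should be silent in the heart, had a median of 35.2 counts per kb of transcript in it, against 3.23 to 12.8 in the other 5 libraries. The spread between mice, as edgeR's common dispersion, was 0.238 with all mice and 0.0825 without it, so results that rest on this library are also given without it. Markers of the tissue were present, with 162 to 365 CPM summed over 8 pan-leukocyte markers. Over 10 cardiomyocyte markers the sums were 40166 to 57813 CPM with LGK-974 and 46718 to 64776 CPM with DMSO, with 9 of 10 markers lower with LGK-974. Mitochondrial genes held 28.2% of counts in LGK-974 replicate 3 and 53.7% in LGK-974 replicate 2, the extremes of the libraries. TMM factors were also furthest apart in this pair, at 1.40 and 0.816. The part of tissue composition in the results was not tested. In such bulk tissue, fewer cells of a type and less RNA per cell cannot be told apart.

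None of the 9 genes differed between LGK-974 and DMSO at an adjusted p under 0.05 in edgeR's quasi-likelihood test. The percentage of all 20094 genes tested that passed was 0, while 2699 genes had an unadjusted p under 0.05, and DESeq2 called 289 of 23595 genes (1.22%) but none of the 9. All 9 genes passed the filter on low counts. By unadjusted p-values under 0.05 in edgeR, Ccr1 and Cx3cl1 were higher with LGK-974 (2 of 9, against 6.26% of all genes) and Cxcr2 and Ccrl2 were lower (2 of 9, against 7.18% of all genes). Without any overlap, the LGK-974 mice exceeded the DMSO mice for Ccr1 and Cx3cl1 (2 of 9, against 10.7% of all genes), and were below them for Ccrl2 (1 of 9, against 7.27%). Without the filter on low counts, edgeR called Ccr1 and Ccr2 (2 of 9, against 3.52% of 34257 genes). The median log2 fold change (log2FC, LGK-974 over DMSO) of the 9 genes was 0.16, beside −0.13 over all genes tested. Without DMSO replicate 1 these medians were −0.05 and −0.02, the genes with an unadjusted p under 0.05 were Ccr1, Ccr2 and Cx3cl1 on the higher side (3 of 9, against 7.12% of all genes) and Ccrl2 on the lower side (1 of 9, against 3.89%), and Cxcr2 was no longer among them. Of the 9 log2FC values on all mice, 6 were above 0 and 3 below.

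**Figure D1:**
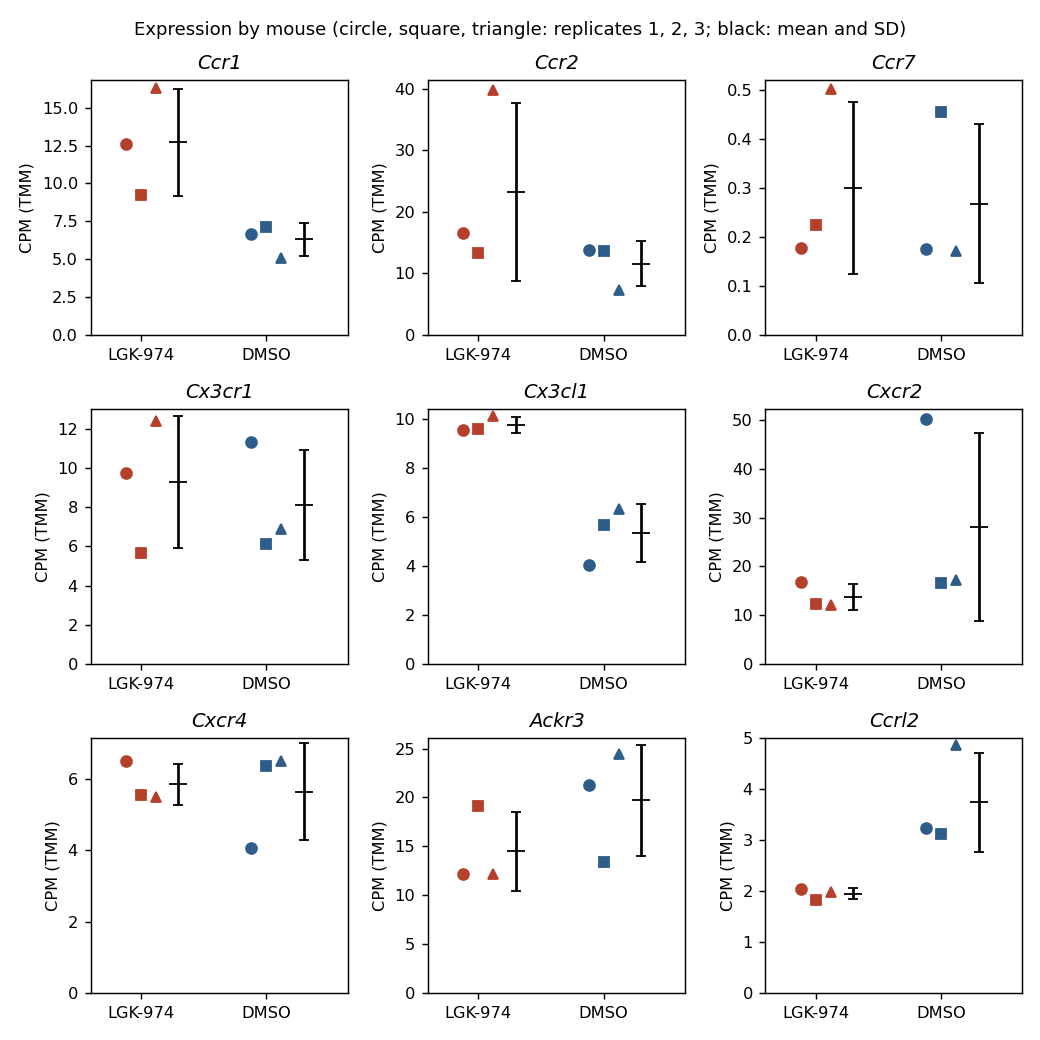
TMM-scaled CPM of each gene in each mouse, with LGK-974 in red, DMSO in blue, circle, square and triangle for replicates 1, 2 and 3, and black bars for the mean and SD of the 3 mice. The groups are apart for Ccr1, Cx3cl1 and Ccrl2, while Cxcr2 has 1 DMSO mouse at 50.3 CPM and Ccr2 has 1 LGK-974 mouse at 39.8 CPM.

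Reference sequence upstream of the start is shown for the 3 genes whose groups did not overlap, since TCF/LEF factors are the nuclear end of the canonical Wnt pathway and PU.1, AP-1 and NF-kB are factors of myeloid and inflammatory genes. Of the 9 genes, 8 had an entry among the RefSeq windows of GRCm38.p6, and Ccr7 had none. The 250 bases before the start are chr9:123968693-123968942 on the minus strand for Ccr1, chr8:94771930-94772179 on the plus strand for Cx3cl1 and chr9:111057519-111057768 on the minus strand for Ccrl2, whose RefSeq entry has 2 further starts. Capitals mark the match to a searched motif.
Ccr1: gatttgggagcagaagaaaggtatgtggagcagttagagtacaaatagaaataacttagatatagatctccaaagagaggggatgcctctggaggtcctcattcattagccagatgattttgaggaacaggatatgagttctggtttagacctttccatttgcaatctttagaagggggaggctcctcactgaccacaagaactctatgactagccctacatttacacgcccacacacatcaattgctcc
Cx3cl1: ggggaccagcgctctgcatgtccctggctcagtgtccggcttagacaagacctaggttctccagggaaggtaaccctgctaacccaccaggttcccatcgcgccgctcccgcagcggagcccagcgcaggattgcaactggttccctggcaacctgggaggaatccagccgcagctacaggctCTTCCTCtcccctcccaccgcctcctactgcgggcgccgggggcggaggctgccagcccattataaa
Ccrl2: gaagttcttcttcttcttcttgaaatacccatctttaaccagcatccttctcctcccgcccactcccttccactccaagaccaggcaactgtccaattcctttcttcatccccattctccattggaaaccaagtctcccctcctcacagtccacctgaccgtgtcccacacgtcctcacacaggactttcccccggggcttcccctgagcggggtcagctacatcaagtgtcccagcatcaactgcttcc
The motifs ATCAAAG (TCF/LEF), TGANTCA (AP-1), GAGGAAG (PU.1) and GGGAN joined to TTTCC (NF-kB) were searched on both strands, and they occur in 3.21%, 6.75%, 10.6% and 0.356% of the 32851 windows of this length. The Cx3cl1 window held the PU.1 letters on its minus strand, from −67 to −61 relative to the RefSeq start. The gene as annotated for the counts begins earlier, at 94772009. Part of this window, with the match, therefore lies inside the annotated gene. No searched motif was found in these windows of Ccr1 and Ccrl2 or in any window of the other 5 genes with an entry. The windows also differed in composition, at 43.6% G and C for Ccr1, 64.8% for Cx3cl1 and 54.0% for Ccrl2, beside a median of 52.4% over all windows. Such a match is a description of the letters and not evidence of binding.

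Ccr1, a receptor of monocytes and neutrophils for CCL3, CCL5, CCL6 and CCL9, is a protein-coding gene on chromosome 9 of GRCm38 from 123962124 to 123968692 (minus strand). It was measured at 12.6, 9.22 and 16.3 CPM in LGK-974 replicates 1, 2 and 3, and at 6.66, 7.16 and 5.11 CPM in DMSO replicates 1, 2 and 3. All LGK-974 mice were above all DMSO mice, and the lowest LGK-974 mouse exceeded the highest DMSO mouse by less than the spread within the LGK-974 group. The means of 12.7 ± 3.53 and 6.31 ± 1.07 CPM (SD, n = 3 each) correspond to a log2FC of 1.01 (standard error, SE, 0.256, 95% confidence interval 0.42 to 1.60, adjusted p = 0.368 with edgeR). Leaving out each mouse in turn gave 0.87 to 1.26, and 1.07 without DMSO replicate 1. The adjusted p was 0.0632 with DESeq2 on all mice and 0.0427 with DESeq2 without DMSO replicate 1, which called 2.24% of 14342 genes. That last fit was added once the values were known, and Ccr1 was the only gene of the 9 it called.

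Ccr2, the receptor that brings classical monocytes to sites of injury, lies on the same chromosome from 124101950 to 124113557 (plus strand). Its levels were 16.5, 13.3 and 39.8 CPM with LGK-974 and 13.8, 13.7 and 7.34 CPM with DMSO. LGK-974 replicate 3 was far above the other mice and DMSO replicate 3 below them, while the remaining 4 mice lay between 13.3 and 16.5 CPM, so the groups overlapped. The log2FC was 1.0 (SE 0.438, 95% confidence interval −0.02 to 2.02, adjusted p = 0.368 with edgeR), and it was 0.44 without LGK-974 replicate 3. It was 1.16 without DMSO replicate 1. Of its words of 31 bases, 3.48% also occur in transcripts of other genes, so that a small part of its reads could have been divided by the counting. Over the 6 libraries the 2 genes closest to Ccr2 in pattern were Enpp1 and Il18, with mean absolute differences of 0.103 and 0.144 between log2 values centred on each gene's mean, where 15517 genes were compared.

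Cx3cr1, on chromosome 9 from 119901616 to 120069879 (minus strand), had 9.77, 5.69 and 12.4 CPM with LGK-974 and 11.3, 6.10 and 6.90 CPM with DMSO. Each group held both low and high mice. The log2FC of 0.20 (SE 0.346, 95% confidence interval −0.61 to 1.0, adjusted p = 0.788 with edgeR) was smaller than the spread between mice. It was 0.53 without DMSO replicate 1 and 0.01 without DMSO replicate 2, so a difference was not detectable with this number of mice.

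The ratio of Ccr2 to Cx3cr1 sets a receptor of classical monocytes against that of patrolling monocytes and resident macrophages within each library, so that library scaling cancels. Its log2 value was 0.76, 1.23 and 1.68 with LGK-974 and 0.28, 1.17 and 0.09 with DMSO. The difference between group means was 0.71 (exact two-sided permutation test over all 20 splits, p = 0.2, with 0.1 the smallest p that 3 against 3 mice allow). The groups overlapped because DMSO replicate 2 exceeded LGK-974 replicate 1.

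Cx3cl1, fractalkine, is made mainly by endothelial and other tissue cells as a membrane-bound adhesion molecule that can be shed, and is the only ligand among the 9 genes. It lies on chromosome 8 from 94772009 to 94782427 (plus strand). Its levels were 9.53, 9.57 and 10.1 CPM with LGK-974 and 4.02, 5.67 and 6.31 CPM with DMSO. The LGK-974 mice were within 1 CPM of each other and all above the DMSO mice, of which DMSO replicate 1 was the lowest. The means were 9.73 ± 0.317 and 5.33 ± 1.18 CPM (SD, n = 3 each), with a log2FC of 0.87 (SE 0.222, 95% confidence interval 0.35 to 1.38, adjusted p = 0.368 with edgeR). Without DMSO replicate 1 it was 0.72. DESeq2 gave adjusted p-values of 0.104 on all mice and 0.0756 without that library. The groups were separated for the ligand gene and overlapped for its receptor gene Cx3cr1, and the difference between the log2FC values of the pair was not tested. Of 10 endothelial markers, 7 were higher and 3 lower with LGK-974, none at an unadjusted p under 0.05, and their summed level was 575 to 645 CPM with LGK-974 and 508 to 694 CPM with DMSO. The genes closest to Cx3cl1 in pattern were C3ar1 and Bgn, at mean absolute differences of 0.0505 and 0.0600.

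Cxcr2, the main neutrophil receptor for CXCL1, CXCL2 and CXCL5, lies on chromosome 1 from 74153989 to 74161246 (plus strand). It was measured at 16.8, 12.4 and 12.0 CPM with LGK-974 and at 50.3, 16.6 and 17.2 CPM with DMSO. DMSO replicate 1 was at almost 3 times the next library, and the other DMSO mice were close to LGK-974 replicate 1. The log2FC of −1.03 (SE 0.432, 95% confidence interval −2.03 to −0.02, adjusted p = 0.368 with edgeR) was −0.28 without DMSO replicate 1. Per kb of transcript, Cxcr2 stood at 18.7 times the median of the silent receptor families in DMSO replicate 1, the lowest of the 6 libraries, against 20.6 and 70.9 times in the other DMSO mice and 38.8, 46.2 and 78.2 times with LGK-974. Cxcr2 in DMSO replicate 1 was thus the highest of the 6 libraries in CPM and the lowest relative to the silent families. In that library it had 657 counts per kb, against the silent median of 35.2. With the silent median times gene length taken off the counts of every library, the log2FC of Cxcr2 was −1.24. The gene closest to it in pattern was the olfactory receptor gene Olfr1087, at 2.65, 2.13 and 1.99 CPM with LGK-974 and 8.95, 2.98 and 3.12 CPM with DMSO (mean absolute difference 0.0623). Of its 3039 words of 31 bases, 12.1% also occur in transcripts of other genes, the largest share of the 9 genes, and 1350 other genes hold such words.

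Neutrophil markers stood beside Cxcr2 as follows. Only 6 of 10 passed the filter, 3 of them higher and 3 lower with LGK-974, none at an unadjusted p under 0.05, with summed levels of 57.0 to 79.9 CPM with LGK-974 and 78.2 to 129 CPM with DMSO. Lcn2, an iron-binding protein of neutrophil granules, held the largest share of that sum in every library, at 45.9, 55.4 and 21.7 CPM with LGK-974 and 94.4, 77.6 and 45.6 CPM with DMSO. Csf3r, the receptor of granulocyte colony-stimulating factor, was at 12.0, 11.7 and 18.8 CPM with LGK-974 and 16.9, 15.4 and 17.2 CPM with DMSO. Mmp8, a neutrophil collagenase, was at 2.64, 1.55 and 2.68 CPM with LGK-974 and 1.89, 0.683 and 0.811 CPM with DMSO, a log2FC of 1.02 with SE 0.531, and 1.63 without DMSO replicate 1. The groups overlapped for all 3 of these markers, and S100a8 and S100a9 had log2FC values of 0.08 and 0.21. The defining markers Ly6g, Camp, Ngp and Retnlg were at or near 0, with at most 0.553 CPM in any library, and Ly6g had no count in 3 of the 6 libraries. In DMSO replicate 1, where Cxcr2 was highest, Lcn2 was highest too, and Csf3r lay within the range of the other libraries. T and NK cell markers were also high in that library, at 54.7 CPM summed against 19.2 to 23.2 CPM in the other 5, and the chemokine receptor gene Ccr9 was at 20.1 CPM against 3.93 to 6.37 CPM. The part of this library in the Cxcr2 result beyond these values was not tested.

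Cxcr4 and Ackr3 encode the pair of receptors for CXCL12, of which ACKR3 mainly takes up the ligand. Cxcr4, on chromosome 1 from 128588199 to 128592293 (minus strand), was at 6.51, 5.54 and 5.51 CPM with LGK-974 and 4.07, 6.37 and 6.51 CPM with DMSO. All mice but DMSO replicate 1 lay between 5.51 and 6.51 CPM. The log2FC was 0.05 (SE 0.251, 95% confidence interval −0.53 to 0.63, adjusted p = 0.931 with edgeR) and −0.12 without that library, so no difference was detectable with this number of mice. Ackr3, on chromosome 1 from 90203980 to 90216751 (plus strand), was at 12.1, 19.2 and 12.1 CPM with LGK-974 and 21.3, 13.4 and 24.4 CPM with DMSO. LGK-974 replicate 2 and DMSO replicate 2 crossed the order of the other mice. The log2FC was −0.44 (SE 0.278, 95% confidence interval −1.09 to 0.20, adjusted p = 0.446 with edgeR), and −0.14 without DMSO replicate 3. The log2 ratio of Cxcr4 to Ackr3 was higher by 0.51 with LGK-974 (exact two-sided permutation test, p = 0.3), with overlapping groups. This difference was 0.21 without DMSO replicate 1, 0.32 without LGK-974 replicate 1, 0.77 without LGK-974 replicate 2, 0.87 without DMSO replicate 2 and 0.26 from TPM values.

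Ccrl2, an atypical receptor that presents the attractant chemerin to CMKLR1 on neighbouring leukocytes, lies on chromosome 9 from 111054486 to 111057519 (minus strand). It was measured at 2.04, 1.83 and 1.99 CPM with LGK-974 and at 3.24, 3.12 and 4.86 CPM with DMSO. All LGK-974 mice were below all DMSO mice, and DMSO replicate 3 was the highest. The means were 1.95 ± 0.109 and 3.74 ± 0.972 CPM (SD, n = 3 each), a log2FC of −0.94 (SE 0.320, 95% confidence interval −1.68 to −0.20, adjusted p = 0.368 with edgeR). It was −1.02 without DMSO replicate 1 and −0.59 without DMSO replicate 3. When CPM was computed from total counts without the TMM factor, the groups overlapped, with LGK-974 replicate 3 at 2.76 CPM above DMSO replicate 1 at 2.67 CPM. The separation of Ccr1 and Cx3cl1 held on that scale, and with DESeq2's size factors all 3 genes were separated. Its annotated transcripts were not told apart in a stable way, since the share of 1 transcript in the gene's estimated counts ran from 27.7 to 80.0% over the libraries and that of another from 0.0352 to 72.3%. The chemerin gene Rarres2, whose exons overlap those of another gene, had a log2FC of 0.15 (SE 0.199), and the chemerin receptor gene Cmklr1 was at 25.3, 24.1 and 24.8 CPM with LGK-974 and 17.7, 23.0 and 22.7 CPM with DMSO, a log2FC of 0.23 (SE 0.154).

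Ccr7, which guides mature dendritic cells and naive lymphocytes toward lymph nodes, was barely measured. On chromosome 11 from 99144196 to 99155077 (minus strand), it had 15, 12 and 32 estimated counts with LGK-974 and 7, 22 and 7 with DMSO, or 0.177, 0.224 and 0.501 CPM and 0.176, 0.455 and 0.172 CPM. Per kb it lay below the median of the silent receptor families in 3 libraries, at 0.101 to 0.870 times, and at 1.09 to 5.01 times in the other 3. The log2FC of 0.16 (SE 0.964, 95% confidence interval −2.08 to 2.40, adjusted p = 0.945 with edgeR) took either sign when single mice were left out, from −0.37 to 0.77. At this depth the level of Ccr7 could not be told from background, and neither could a change in it.

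**Figure D2:**
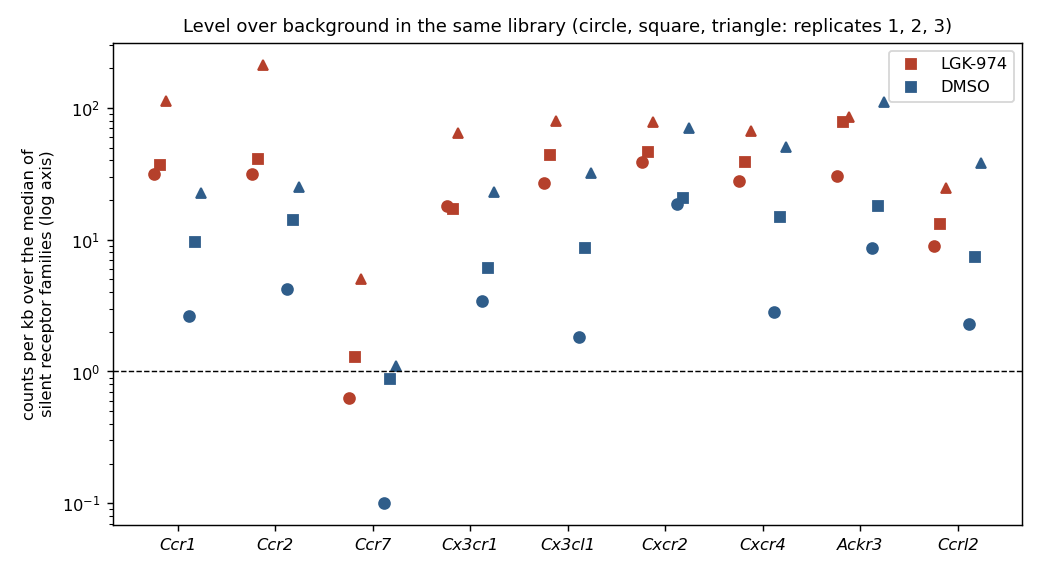
Counts per kb of transcript for each gene divided by the median counts per kb of 1501 silent receptor genes in the same library (log axis, dashed line at 1). LGK-974 libraries are red and DMSO libraries blue. Ccr7 lies around the line, and every other gene is lowest in DMSO replicate 1, at 1.82 to 18.7 times.

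To compare genes with each other, levels were divided by transcript length. In the DMSO group the order of mean CPM per kb began with Cxcr2 at 9.20 and Ackr3 at 7.06, followed by Cxcr4 at 3.46, Ccr2 at 3.14, Ccrl2 at 2.35, Ccr1 at 2.23, Cx3cr1 at 2.15, Cx3cl1 at 2.14 and Ccr7 at 0.135. Only Ackr3 above Cxcr4 and Cx3cl1 above Ccr7 held in all 3 DMSO mice among these neighbours. With LGK-974 the order began with Ccr2 at 6.28, Ackr3 at 5.19, Cxcr2 at 4.51, Ccr1 at 4.49 and Cx3cl1 at 3.90 CPM per kb. It ended with Cxcr4 at 3.59, Cx3cr1 at 2.46, Ccrl2 at 1.22 and Ccr7 at 0.152, and these last 4 genes kept their order in all 3 LGK-974 mice, whereas the neighbours above them did not. Ccr2, Ccr1 and Cx3cl1 thus ranked higher among the 9 genes with LGK-974 than with DMSO, and Cxcr2, Cxcr4 and Ccrl2 ranked lower. Ccr2 was first only in LGK-974 replicate 3, at 10.8 CPM per kb. In LGK-974 replicates 1 and 2 it was at 4.47 and 3.61, below Cxcr2 at 5.53 and 4.06. These ranks were not tested. Without DMSO replicate 1 the DMSO order began with Ackr3 at 6.77 and Cxcr2 at 5.54, so the first place of Cxcr2 rested on that library, and Cx3cl1 at 2.40 was above Ccr1 at 2.16.

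Leukocyte markers moved beside these genes. All 8 pan-leukocyte markers had log2FC values above 0, 7 with an unadjusted p under 0.05 in edgeR (against 6.26% of all genes), with a median of 0.88 and summed levels of 261 to 365 CPM with LGK-974 and 162 to 199 CPM with DMSO. The smallest p-values were those of Arhgdib, Cd53 and Laptm5. All 10 monocyte and macrophage markers were above 0 as well, 9 with an unadjusted p under 0.05 (against 6.26% of all genes). Their median was 0.92, with 523 to 638 CPM against 223 to 327 CPM. Lyz2, the lysozyme of myeloid cells, was at 164, 165 and 212 CPM with LGK-974 and 52.2, 81.9 and 85.7 CPM with DMSO, and Adgre1 and Cd68, both of macrophages, had log2FC values of 0.88 and 1.06. In edgeR none of these markers passed an adjusted p under 0.05, while DESeq2 on all mice called 4 of the 8 and 6 of the 10 (against 1.22% of 23595 genes). All of these were higher, among them Lyz2 (DESeq2 adjusted p = 0.000278) and Arhgdib (DESeq2 adjusted p = 0.0195). Without DMSO replicate 1 the median log2FC values were 0.82 and 0.91. Of the fibroblast markers, 10 of 10 had log2FC values above 0, from 0.0054 for Dcn to 1.56 for Postn. Among them 4 had an unadjusted p under 0.05 in edgeR, all higher (against 6.26% of all genes). Their summed levels were 3523 to 6072 CPM with LGK-974 and 1745 to 2575 CPM with DMSO. The part of these marker differences in the levels of the 9 genes was not tested beyond the relative levels that follow.

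Each of the 9 genes was therefore also expressed relative to the 8 pan-leukocyte markers in the same library, as the log2 level of the gene minus the mean log2 level of the markers. On this scale Ccr1 differed between the groups by 0.11, Ccr2 by 0.02 and Cx3cl1 by 0.02, with overlapping groups (exact two-sided permutation tests, p = 0.7, 1 and 1). The differences were −1.71 for Cxcr2, −1.78 for Ccrl2 and −0.79 for Cxcr4, and for these 3 of 9 genes no LGK-974 mouse reached a DMSO mouse (exact p = 0.1 for each, the smallest possible). That count is no more than the background, since 63.8% of the 20094 genes lay lower without overlap on this scale, with a median difference of −0.97. Ackr3 differed by −1.30, Ccr7 by −0.73 and Cx3cr1 by −0.69, with exact p-values of 0.2, 0.3 and 0.3. The difference for Cx3cr1 was −0.33 without DMSO replicate 1, and that for Ccr7 was −0.40 without DMSO replicate 2 and −0.48 without LGK-974 replicate 1. Without DMSO replicate 1 the difference for Cxcr2 was −1.08, beside a median of −0.82 over all genes, while that for Ccrl2 was −1.77. Ccr1, Ccr2 and Cx3cl1 were then at 0.26, 0.27 and −0.07, above the median as on all mice, and Ccrl2 remained further below it than Cxcr2. With the 2 ratios above, 11 such exact tests were made, and the number of mice lets none of them pass a threshold of 0.05.

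**Figure D3:**
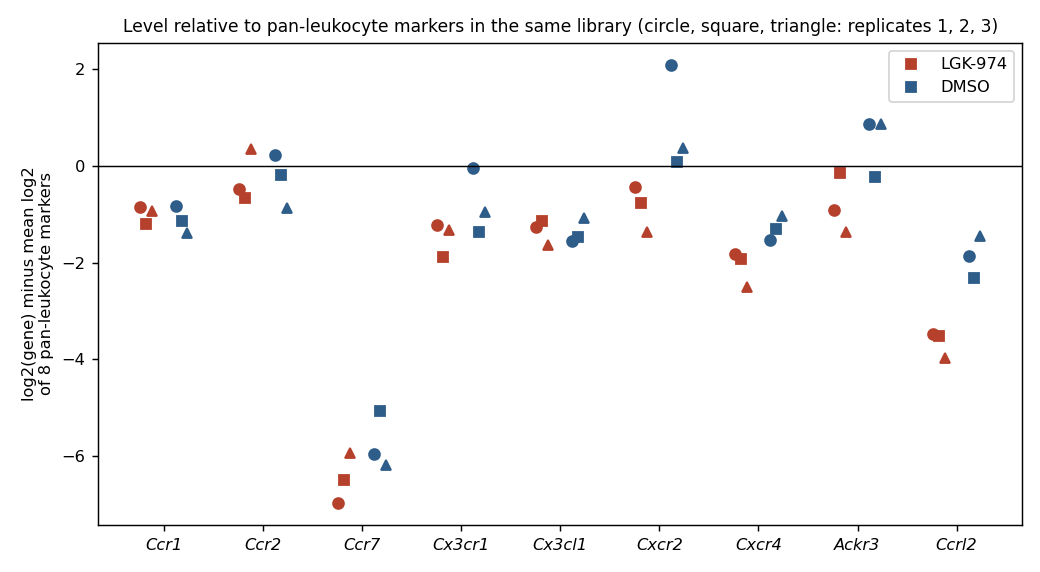
Log2 level of each gene minus the mean log2 level of 8 pan-leukocyte markers in the same library, by mouse, with LGK-974 in red and DMSO in blue. The groups mix for Ccr1, Ccr2 and Cx3cl1 and are apart for Cxcr2, Cxcr4 and Ccrl2.

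Among the ligand genes of these receptors, those listed under CCR2 were the furthest apart. Of 20 ligand genes tested, 16 had a log2FC above 0 and 4 below, 6 had an unadjusted p under 0.05 in edgeR, all higher with LGK-974 (against 6.26% of all genes), and 8 were without overlap, all higher (against 10.7% of all genes). Their median log2FC was 0.40, and 0.62 without DMSO replicate 1. Their summed level was 374 to 421 CPM with LGK-974 and 230 to 283 CPM with DMSO. Ccl2, the main ligand of CCR2, was at 44.1, 34.2 and 43.0 CPM with LGK-974 and 12.6, 23.4 and 16.9 CPM with DMSO, a log2FC of 1.20 (SE 0.241). Ccl7 was at 20.8, 18.5 and 24.9 CPM against 6.43, 11.2 and 7.12 CPM, with 1.38 (SE 0.246). Ccl12 and Ccl8 had log2FC values of 1.29 (SE 0.213) and 1.53 (SE 0.519), with Ccl8 low, at means of 2.20 CPM with LGK-974 and 0.761 CPM with DMSO. For all 4 ligand genes listed under CCR2 the groups were separated, while Ccr2 itself overlapped.

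Of the ligand genes listed under CCR1, all 4 had a log2FC above 0. Ccl9 was at 59.1, 56.8 and 48.6 CPM with LGK-974 and 27.8, 34.0 and 20.7 CPM with DMSO, a log2FC of 1.0 (SE 0.208), and Ccl6, which overlapped, had 0.90 (SE 0.320). Ccl3 and Ccl5, at 2.90 and 1.13 CPM on average with LGK-974, had log2FC values of 0.76 and 0.27. The ligand genes of CXCR2 had log2FC values of 0.44 for Cxcl1, 0.15 for Cxcl2, −0.71 for Cxcl3, 0.36 for Cxcl5 and −0.10 for Ppbp, and all 5 had overlapping groups. Without DMSO replicate 1 all 5 were above 0, at 0.70, 0.14, 0.28, 0.75 and 0.55 in the same order. The direction of Cxcl3 and Ppbp thus depended on that library, while that of Cxcl1, Cxcl2 and Cxcl5 did not. Cxcl12, the ligand of CXCR4 and ACKR3, was at 74.4, 82.8 and 122 CPM with LGK-974 and 67.4, 70.9 and 91.5 CPM with DMSO, a log2FC of 0.28 (SE 0.233). The ligand genes of CCR7, Ccl19 and Ccl21a, had −0.89 and 0.57, and each has 2 gene records in the annotation, of which 1 was tested. In edgeR the adjusted p-values of these ligand genes were all 0.368 or above. DESeq2 on all mice called Ccl2, Ccl7, Ccl9 and Ccl12, with adjusted p-values of 0.00594, 0.00209, 0.00594 and 0.00299, all higher with LGK-974. The share of all 23595 genes that DESeq2 called was 1.22%.

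**Figure D4:**
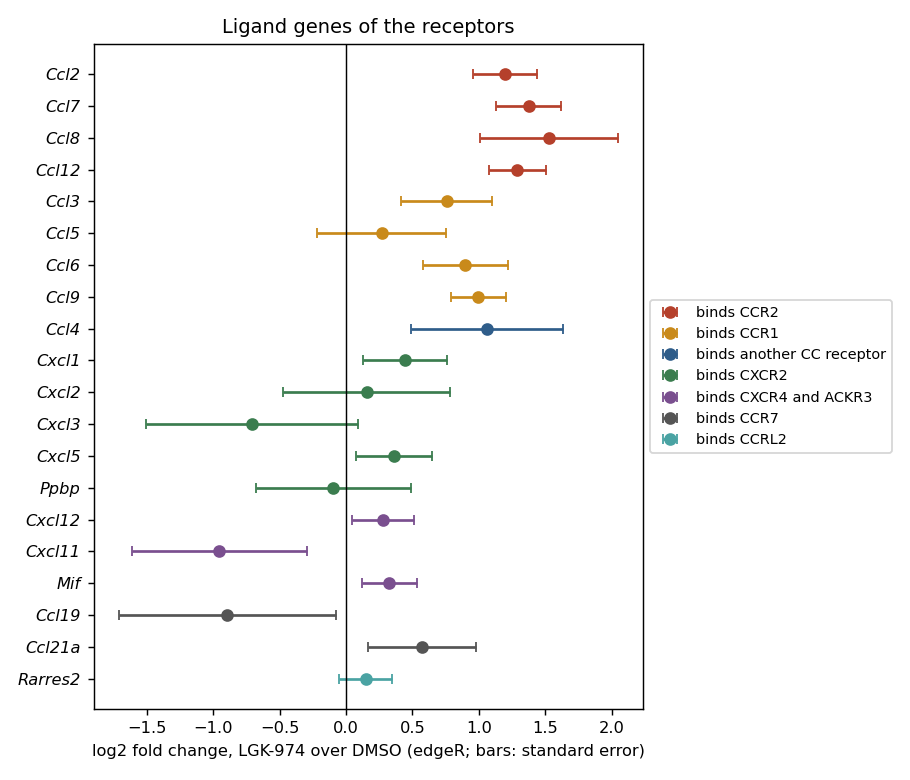
Log2FC of each ligand gene, LGK-974 over DMSO, from edgeR with its standard error, colored by the receptor it is listed under. The 4 ligand genes listed under CCR2 lie between 1.20 and 1.53, and those of CXCR2 lie between −0.71 and 0.44, or between 0.14 and 0.75 without DMSO replicate 1, which is not plotted.

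Chemokine receptor genes outside the 9 and the machinery downstream were compared in the same fit. Of 15 further chemokine receptor genes, 12 were tested, 5 with log2FC values above 0 and 7 below. Only Cxcr6 had an unadjusted p under 0.05 (1 of 12, on the higher side, against 6.26% of all genes). It was at 3.55, 2.46 and 4.73 CPM with LGK-974 and 1.78, 1.86 and 2.28 CPM with DMSO (log2FC 0.86, SE 0.353). Their median was −0.27, and 0.41 without DMSO replicate 1. Of 21 signaling genes downstream of the receptors, 18 were above 0 and 3 below, with 7 at an unadjusted p under 0.05 in edgeR, all higher (against 6.26% of all genes). The smallest p-values were those of Pik3r5, a subunit of the phosphoinositide 3-kinase that G protein subunits activate, at a log2FC of 0.68 (SE 0.161), of the G protein subunit gene Gnai3 at 0.59 and of Dock2, a Rac activator of leukocytes, at 0.79. Of 10 receptor genes for other attractants, 6 were above 0 and 4 below. Of these 10 genes, 3 had an unadjusted p under 0.05, all higher (against 6.26% of all genes). These were C5ar1 and C3ar1 for complement fragments, at 1.06 and 0.94, and Ptafr for platelet-activating factor, at 0.99. In edgeR no gene of these lists passed an adjusted p under 0.05, and DESeq2 on all mice called C5ar1 and C3ar1 (against 1.22% of 23595 genes).

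The pattern of each gene over the 6 libraries was also set beside all 15517 genes with a mean of at least 1 CPM, as a description over 6 points that share the library scaling. Among the 9 genes, the closest pairs were Ackr3 with Ccrl2, Ccr1 with Ccr2, and Ccr1 with Cx3cl1, at mean absolute differences of 0.289, 0.305 and 0.319. Over all genes, Ccr1 was closest to Dbn1 and Rap2b at 0.0644 and 0.0709. Cxcr4 was closest to Klf6 at 0.0321, the smallest difference found for any of the 9 genes, and to Srp54c. Ackr3 was close to Pde7a. Cx3cr1 was closest to Cchcr1 and Tgif2, and Ccrl2 to Zfp14 and Eps8l2. For Ccr7 the nearest genes, Ccdc69 and Gm49601, were at 0.197 each, further than those of any other of the 9 genes.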

How the data were processed

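Total RNA of infarct tissue from 3 mice given LGK-974 and 3 given DMSO was sequenced. Per the labels, ribosomal RNA was depleted with RiboZero and libraries were made with the TrueSeq RNA Access kit. The authors quantified transcripts with Kallisto on an index of GRCm38, and its version is not given in the sources used here. They deposited an estimated count for each of 118489 transcripts per library, which divides reads that match several transcripts, and a TPM value, scaled by the authors to transcript length and library total. Groups and replicate numbers were taken from the labels. The members and gene lists were chosen with earlier results of these data known.

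Estimated counts were summed per gene through GENCODE M21 (98.6% of transcripts, 99.6 to 99.7% of counts) and rounded. Genes were tested in R 4.3.3 with edgeR 4.0.16 (quasi-likelihood, TMM scaling, treatment alone in the model) where 3 or more samples had 10 counts or more, with Benjamini-Hochberg adjustment over all genes tested, with a threshold of 0.05. DESeq2 1.42.0, the tool of the study's methods, and limma 3.58.1 were alternatives, as were other scalings and filters, counts scaled from TPM, counts less background (the median counts per kb of the silent families times gene length), a replicate block and each mouse left out. The edgeR, DESeq2 and limma-voom tests were tested on simulated data, with 200 genes changed at a log2 fold of 2 and the fitted dispersion. At the adjusted threshold of 0.05, DESeq2 made 72 false calls among 210. In the same simulation edgeR made 11 among 127 and limma-voom 9 among 115. The DESeq2 calls given here therefore carry more false calls than the threshold states, if the data behave as the simulation did. Ratios within a library used a pseudocount of 0.5 counts and exact permutation tests. Tables and motif searches used Python 3.11.15 with pandas 2.3.3, NumPy 2.4.6 and SciPy 1.17.1, and figures used matplotlib 3.10.9.

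Named were the 9 members, their ligands, up to 3 genes with the smallest p-values of each other list where a list was described, and the 2 genes closest to each member in pattern. Some genes of this rule are not reported here. Further neutrophil markers and Cmklr1 were named after their values were seen. The lists of dendritic and B cell, fibroblast and cardiomyocyte markers had median log2 fold changes of −0.26, 0.54 and −0.45, and that of T and NK cell markers −1.36 (−0.18 without DMSO replicate 1). Whether the same-numbered mice share a litter or day was not stated.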

Additional observations from a re-analysis of the deposited data

How the results depend on the processing

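No gene among the 9 reversed its direction under any alternative run except Ccr7 and Cxcr4, whose log2 fold changes were near 0. Ccr7 was at −0.78 with limma-voom and sample quality weights, −0.066 with DESeq2 without DMSO replicate 1 (added once the values were known) and −0.37 to 0.77 with single mice left out. Cxcr4 was at −0.032, −0.058 and −0.13 with the quality weights, with counts scaled from TPM and with that DESeq2 fit, and −0.12 to 0.27 with single mice left out. Past an adjusted p of 0.05 were Ccr1 at 1.17 and Ccr2 at 1.18 without the filter on low counts (adjusted p = 0.00631 and 0.00414 with edgeR, where 3.52% of 34257 genes passed) and Ccr1 at 1.05 with DESeq2 without DMSO replicate 1 (adjusted p = 0.0427). Members with an unadjusted p under 0.05 in the main edgeR fit numbered 4 of 9, against 13.4% of all genes in either direction. They numbered 2 with counts less background and 2 to 5 with single mice left out, the lowest being without LGK-974 replicate 3. Apart from the fit without DMSO replicate 1, the shares of all genes in these alternatives are not reported here. Genes with an adjusted p under 0.05 numbered 0, but 1206 without the filter, 289 with DESeq2, 321 with DESeq2 without DMSO replicate 1, 45 with the quality weights and 0 to 2 with single mice left out, 2 of them without DMSO replicate 1. Relative to leukocyte markers, the small differences of Ccr1, Ccr2 and Cx3cl1 took the other sign with monocyte and macrophage markers as the reference (−0.0084, −0.11 and −0.10), that of Cx3cl1 with TPM (−0.16), and that of Ccr7 with counts less background (0.72). With single mice left out these ran from −0.022 to 0.26 for Ccr1, −0.29 to 0.27 for Ccr2 and −0.083 to 0.16 for Cx3cl1. The cause of these shifts was not tested. Deviations from the group means correlated at 0.48, −0.04 and 0.42 between mice numbered 1, 2 and 3 alike. Between mice of different numbers the correlations ran from −0.53 to 0.16. Whether the numbers pair the mice was not tested. A fit with the replicate block gave Ccr1, Cx3cl1, Cxcr2 and Ccrl2 log2 fold changes of 0.98, 0.89, −0.84 and −0.91, and 0 genes passed the adjusted threshold. The median log2 fold change of the members ran from −0.066 to 0.38 and so took either sign. Counts less background and a filter of 50 counts gave no log2 fold change for Ccr7.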
